A study of Mus musculus with 4 samples.

Results

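The 10 genes described here encode enzymes of myeloid cells. Most of them break down or convert tryptophan, arginine, histidine or the citrate cycle intermediate aconitate, and Gch1 and Ass1 help to supply a cofactor and arginine. They were taken as every probe set annotated with the symbol of 1 listed enzyme and no other symbol. This gave 12 probe sets of 9 genes, out of 22626 probe sets of 12393 genes. Ido1, Kynu, Kmo, Arg1, Nos2 and Acod1 had 1 probe set each, and Arg2, Gch1 and Hdc had 2. The 1 probe set of the array annotated with Ass1, the enzyme that remakes arginine's precursor from citrulline, carries another symbol too and was not analysed here.

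The cells were bone marrow dendritic cells (DC) of c57bl/6 mice, and their RNA was hybridised to 2 arrays of immature DC and 2 arrays of DC modulated by NKT cells, which are T cells that recognise lipids on CD1d. The design text gives CD11c cells as the source of the RNA. How the NKT cells acted on the DC, for how long, and whether they were removed is not given in the sources used here. Nothing says that the arrays came from separate mice or cultures, so the p-values cover no more than array-to-array spread, and this spread may be technical. The design text speaks of triplicates, of an array type that may hold more probe sets than the 22690 of the deposited table, and of labelling in 1 cycle, but the labels of the samples give 2 cycles; 4 arrays were analysed here, and which labelling was used is not settled.

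Indoleamine 2,3-dioxygenase (Ido1) opens tryptophan to start the kynurenine pathway, and kynurenine 3-monooxygenase (Kmo) and kynureninase (Kynu) act further down it. Arginine is shared by the arginases (Arg1 in the cytosol, Arg2 in mitochondria), which release urea and ornithine, and the inducible nitric oxide synthase (Nos2), whose cofactor tetrahydrobiopterin is made from GTP by a route that Gch1 starts. Histidine decarboxylase (Hdc) makes histamine, and Acod1, formerly Irg1, makes itaconate from cis-aconitate. Ido1, Nos2, Gch1 and Acod1 are textbook targets of interferon gamma in mouse myeloid cells, and Arg1 is one of IL-4 and IL-13.

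Of the 9 genes, 6 rose in NKT-modulated DC, 0 fell and 3 did not pass an adjusted p of 0.05 (limma, with Benjamini-Hochberg adjustment over all probe sets); at an unadjusted p under 0.05, 8 were higher and 0 lower. Over all genes 12.9% were called by the same rule, 5.99% higher and 6.88% lower. At an adjusted p under 0.001, 2 of the 9 genes passed, Acod1 and Hdc, as did 1.23% of all genes. The median log2 change was 0.89 for the 9 genes and -0.04 for all genes. The arrays of the groups did not overlap for 8 of the 9 genes, as for 56.3% of all genes. By probe set, 7 of 12 were higher and 0 lower, while 11.1% of all probe sets were called, 5.36% higher and 5.70% lower. The steepest rises were in Acod1, Hdc and Ido1, at ranks 18, 46 and 103 of 12393 genes. The count of 6 was 3 without NKT-modulated replicate 1 and also 3 without an intensity trend of the variance; Acod1, Hdc and Ido1 passed in both. A change here is the difference in log2(signal + 16) after quantile normalization, NKT-modulated minus immature, given with its SE for 2 arrays per group; it understates the fold of probe sets whose signals lie near or below 16.

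**Figure D1:**
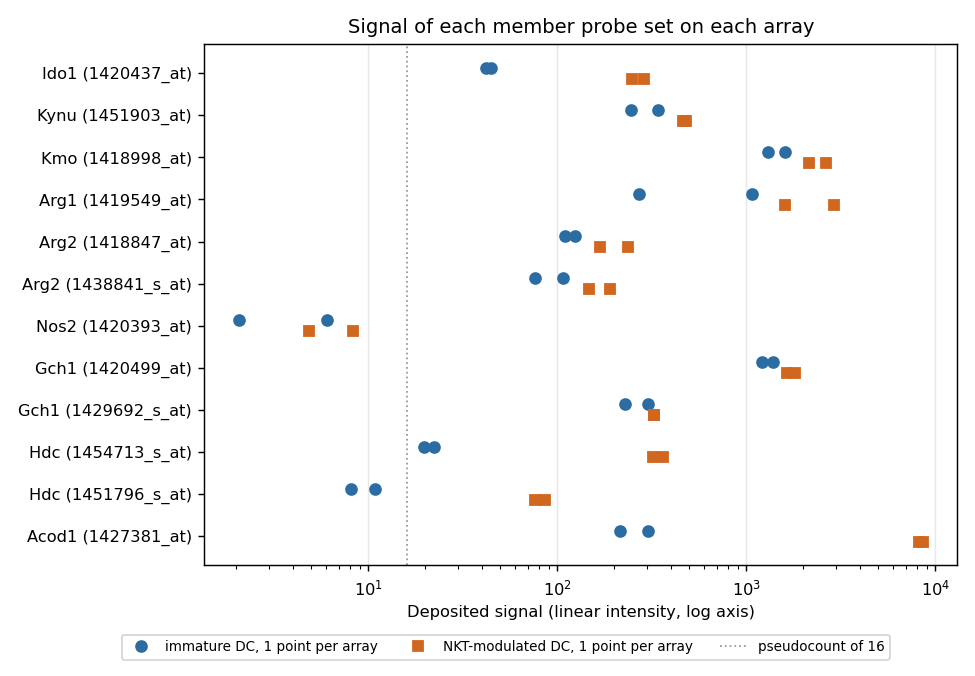
Deposited signal (linear intensity on a log axis) of the 12 member probe sets, with 1 point per array: circles for the 2 immature DC arrays and squares for the 2 NKT-modulated DC arrays. The groups are furthest apart for Acod1, whose signals go from 214 and 303 to 8637 and 8162, while both groups of Nos2 lie below the dotted line at 16.

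**Figure D2:**
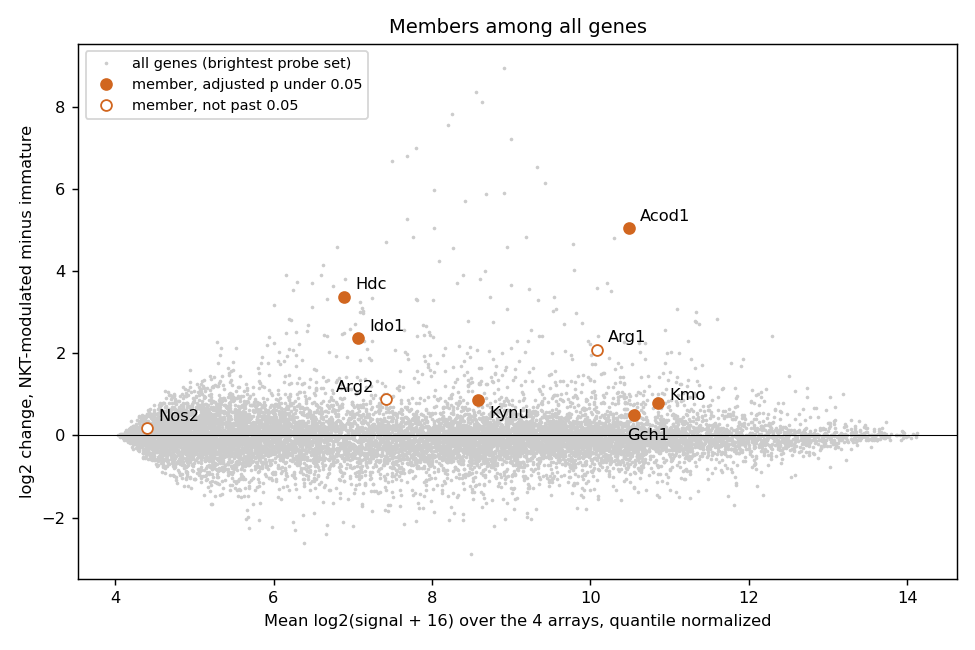
Log2 change (NKT-modulated minus immature) against mean log2(signal + 16) over the 4 arrays for 12393 genes in grey, with the 9 measured member genes in orange. Filled points have an adjusted p under 0.05, and open points (Arg1, Arg2 and Nos2) do not.

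Transcripts of T cells were higher in the same arrays. Of 15 measured T and NKT cell markers 7 rose and 0 fell, and their summed signal went from 1177 to 1183 in immature arrays to 4383 to 6125 in NKT-modulated arrays; Cd3g, a chain of the T cell receptor complex, went from 19.0 and 15.4 to 1401 and 1046. Of 8 neutrophil markers 3 rose and 0 fell (summed signal 944 to 1135, then 1844 to 2059). Cxcr2 went from 72.7 and 88 to 531 and 570, and Ngp and S100a8 were the others that rose. S100a9, Ltf, Camp, Mpo and Elane were not called. Of 5 B cell markers 2 rose and 0 fell (584 to 668, then 1396 to 1454). Most of the B cell sum was Blnk, at 471 and 561, then 1044 and 1135. Cd79b was the other that rose, and Cd79a, Ms4a1 and Pax5 were not called. Of 6 NK cell markers 1 rose and 1 fell (803 to 864, then 410 to 479). The fall of the NK cell sum was that of Klrd1, at 639 and 717, then 134 and 161. Gzma, the marker that rose, went from 32.7 and 22.5 to 124 and 109. Macrophage and monocyte markers went both ways, 2 of 9 higher and 3 lower (29777 to 29952, then 28118 to 28876). Of 14 DC markers, among them Itgax (CD11c), at 5442 and 5537, then 5253 and 4643, 4 rose and 0 fell (68629 to 72077, then 80807 to 87617). The 3′ to 5′ signal ratio of Gapdh, a measure of RNA integrity, was 1.44 to 1.76 in immature and 1.87 to 1.98 in NKT-modulated arrays, while that of Actb was 1.16 to 1.18 and 1.09 to 1.18. The part of these differences in the results given here was not tested. In such bulk RNA, a change in the share of a cell type and a change of RNA per cell cannot be told apart.

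Acod1, the itaconate enzyme, had the steepest rise of the 9 genes. Its signals were 214 and 303 in immature DC and 8637 and 8162 in NKT-modulated DC. Both modulated arrays lay far above both immature arrays, with a gap of 4.86 on the log2 scale between the nearest of them. The change was 5.04 ± 0.12 (SE; 32.9-fold; adjusted p = 2.34e-05), and it lay between 4.79 and 5.27 over all alternative settings, with adjusted p up to 0.00324. In the RefSeq promoter table of the mouse GRCm38.p6 assembly, 4 of the 9 genes had a window of 300 bases, from 250 before the transcription start to 50 after it. The 250 bases before the start of Acod1, at chr14:103046762-103047011 on the + strand, are shown as the promoter of the gene with the steepest rise, with the 1 motif match in capitals:
Acod1: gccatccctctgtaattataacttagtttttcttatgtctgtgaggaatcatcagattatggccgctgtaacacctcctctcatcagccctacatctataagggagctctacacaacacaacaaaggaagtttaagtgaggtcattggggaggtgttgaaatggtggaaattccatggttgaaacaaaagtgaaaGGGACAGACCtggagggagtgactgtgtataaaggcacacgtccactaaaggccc
Both strands were searched for GAS (TTC and GAA with any 3 bases between them), a STAT6-type site (TTC and GAA around any 4 bases), an ISRE core (GAAA, any 2 bases, GAAA), an NF-kB type site (GGGA and CC around any 4 bases) and AP-1 (TGA, any 1 base, TCA). Among the letter patterns searched, the Acod1 window held 1 match, GGGACAGACC of the NF-kB type pattern, beginning at position -55 from the start. No other motif overlapped it. NF-kB sites spelled otherwise were not searched for, and binding was not tested. The NF-kB type pattern is in 20.7% of all 32851 windows, and the other motifs, in the order given, are in 8.3%, 6.95%, 3.44% and 7.81%.

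In the itaconate and citrate cycle list, which also holds cytosolic enzymes such as Idh1, falls were called beside Acod1 and no other rise. By the same rule 5.99% of all genes were higher and 6.88% lower. Of 22 other measured genes of the itaconate and citrate cycle list, 0 rose, 6 fell and 16 did not pass (limma; 1 higher and 10 lower at an unadjusted p under 0.05), with a median log2 change of -0.23. Idh1, the cytosolic isocitrate dehydrogenase, fell by 1.35 ± 0.11 (adjusted p = 0.00121). Its signals were 4050 and 4357, then 1456 and 1725, and it passed under every alternative, with adjusted p up to 0.0295. Its other probe set also fell, by 1.22 ± 0.12. Idh2, the mitochondrial enzyme that uses NADP, fell by 0.65 ± 0.09 (adjusted p = 0.00879). Idh3g, a subunit of the NAD-dependent enzyme, and Sdhd, a membrane subunit of succinate dehydrogenase, the enzyme that itaconate is known to inhibit, fell by 0.46 ± 0.09 each (adjusted p = 0.0232 and 0.0276). For Sdhd the dimmer of its 2 probe sets did not pass, at -0.22 ± 0.15. Without the intensity trend, Idh2, Idh3g and Sdhd did not pass (limma, adjusted p = 0.0707, 0.141 and 0.148 in that order). Adjusted p was 0.0541 and 0.0604 for Idh2 without NKT-modulated replicate 1 and replicate 2. Without immature replicate 1, NKT-modulated replicate 1 and NKT-modulated replicate 2, in that order, it was 0.0874, 0.0916 and 0.126 for Idh3g and 0.0968, 0.127 and 0.126 for Sdhd.

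Hdc rose by both of its probe sets. The brighter one had signals of 19.6 and 22.4 in immature DC and 362 and 321 in NKT-modulated DC, and the dimmer one 10.9 and 8.14 against 86.6 and 76.0. The groups were far apart in both probe sets, and the replicates lay close together. The changes were 3.38 ± 0.22 (10.4-fold; adjusted p = 6.50e-04) and 1.98 ± 0.25 (3.93-fold; adjusted p = 0.00542). The size depends on the pseudocount, since the immature signals lie near or below it: with a pseudocount of 1 the changes were 4.08 and 3.02, and with 64 they were 2.35 and 1.01. Both probe sets passed under every alternative in which they were tested, with adjusted p up to 0.0101 and 0.0413. Mast cells and basophils are the cells best known for making histamine. Of their 12 measured markers, 0 rose by limma, also 0 at an unadjusted p under 0.05, and 1, Kit, fell. Their summed signal went from 1049 and 1155 to 788 and 625. The fall of this sum was largely that of Kit, at 626 and 736, then 374 and 263, so the sum says little of the other markers. Of the markers not called, Gata2 was at 185 and 172, then 110 and 104. Fcer1a and Cpa3, picked after their values were seen, were dimmer. Fcer1a was at 15.7 and 19.1, then 20.7 and 12, and Cpa3 was at 34.8 and 29.4, then 46.5 and 47.6. Cpa3 was thus higher in both modulated arrays, though not called. No detection call was used, so whether these markers lay above background was not tested. Other cell types differed in the same arrays: of 8 neutrophil markers 3 rose and 0 fell, as given above. The part of any cell type in the Hdc signal was not tested. The 250 bases before the Hdc start of the promoter table, at chr2:126618679-126618928 on the - strand, are shown beside those of Acod1 as the promoter of the gene with the next steepest rise:
Hdc: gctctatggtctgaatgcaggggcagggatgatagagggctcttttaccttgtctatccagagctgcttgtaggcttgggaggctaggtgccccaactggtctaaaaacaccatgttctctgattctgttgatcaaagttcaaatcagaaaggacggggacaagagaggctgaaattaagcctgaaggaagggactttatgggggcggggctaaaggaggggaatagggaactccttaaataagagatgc
The Hdc window held 0 matches to the 5 motifs, as did the windows of Gch1 and Kmo.

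Hal, Hnmt and Hrh1, which belong to histidine and histamine turnover, fell in the arrays in which Hdc rose. Of 12 other measured genes of this list, 0 rose, 3 fell and 9 did not pass (limma; 1 higher and 3 lower at an unadjusted p under 0.05), with a median of 0.05. Hal, the ammonia-lyase that starts the breakdown of histidine, went from signals of 1039 and 1374 to 234 and 287, and fell by 1.98 ± 0.15 (adjusted p = 0.00108). Hal passed under every alternative, with adjusted p up to 0.0205. Hnmt, which inactivates histamine by methylation, went from 206 and 299 to 79.6 and 75, and fell by 1.35 ± 0.22 (adjusted p = 0.0141). Hrh1, the histamine H1 receptor, went from 236 and 266 to 53.5 and 68.4, and fell by 1.67 ± 0.23 (adjusted p = 0.00807); its dimmer probe set, at -0.59 ± 0.27, did not pass. In each of these 3 genes, named because they were called, all modulated arrays lay below all immature arrays. The groups did not overlap for 56.3% of all genes. Leaving out any 1 of the 4 arrays ended the call of Hnmt, with adjusted p = 0.0507 and 0.108 without immature replicate 1 and 2 and 0.0602 and 0.0522 without NKT-modulated replicate 1 and 2. Hrh1 had adjusted p = 0.0639 and 0.0607 without immature replicate 1 and 2.

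**Figure D3:**
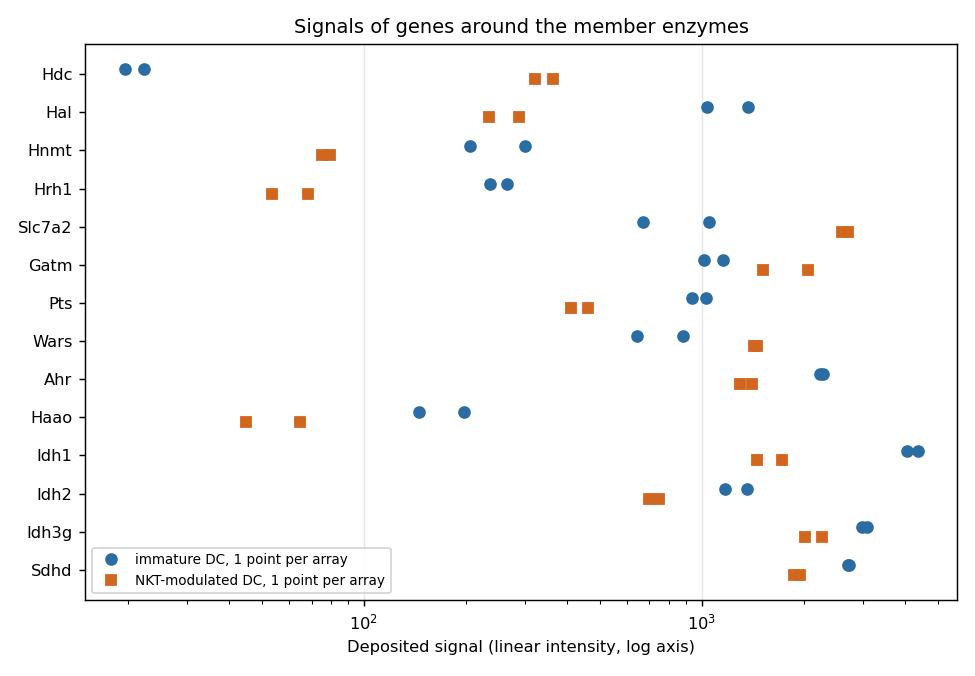
Deposited signal (linear intensity on a log axis) of Hdc and 13 pathway genes named beside the members, 1 point per array, circles for immature and squares for NKT-modulated DC. Hdc moves right by its squares, while Hal, Hnmt and Hrh1 move left. The groups of each gene shown are apart, and the 13 pathway genes were chosen by their call.

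The 3 member enzymes of the kynurenine pathway, Ido1, Kynu and Kmo, rose by unequal amounts. Ido1 had signals of 44.7 and 42.2 in immature DC and 287 and 250 in NKT-modulated DC, a gap many times the distance between replicates. Its change was 2.37 ± 0.21 (5.15-fold, 95% interval 1.85 to 2.88 on the log2 scale; adjusted p = 0.00168), and adjusted p reached 0.0192 at most, without NKT-modulated replicate 1. Kynu went from 245 and 341 to 460 and 477, a change of 0.87 ± 0.15 (adjusted p = 0.0184). Kmo, already bright in immature DC at 1311 and 1597, went to 2653 and 2139, a change of 0.78 ± 0.11 (adjusted p = 0.00788). The groups did not overlap in either, but the gaps between nearest arrays, 0.69 and 0.61, were small beside that of Ido1, 2.28. The calls of Kynu and Kmo rested on single arrays or settings. Kynu had adjusted p = 0.0740 without immature replicate 1, 0.0854 and 0.0934 without NKT-modulated replicate 1 and 2, 0.0772 without normalization between arrays and 0.0650 without the intensity trend. Kmo had adjusted p = 0.0554 without NKT-modulated replicate 1 and 0.0720 without the intensity trend.

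Of 16 other measured genes of tryptophan and kynurenine metabolism, 1 rose, 2 fell and 13 did not pass, with a median of -0.03. Wars, the tryptophanyl-tRNA synthetase, which charges tRNA with tryptophan and is known to be induced by interferon gamma, rose by 1.05 ± 0.12 (adjusted p = 0.00363), from 644 and 879 to 1453 and 1423. All 4 of its probe sets rose, by 0.77 to 1.05. Haao, the dioxygenase that acts after kynureninase, fell by 1.29 ± 0.25 (adjusted p = 0.0262), from 146 and 198 to 64.5 and 44.7. Ahr, the aryl hydrocarbon receptor, which binds kynurenine among other ligands, fell by 0.66 ± 0.09 (limma, adjusted p = 0.00867). Its signals went from 2245 and 2287 to 1412 and 1296. The dimmer Ahr probe set, at -0.20 ± 0.25, did not pass, and without the intensity trend the brighter one did not (adjusted p = 0.0796). Without immature replicate 1 and 2 and NKT-modulated replicate 1 and 2, in that order, Haao had adjusted p = 0.0962, 0.154, 0.0590 and 0.0881. Ahr had adjusted p = 0.0504 and 0.0611 without NKT-modulated replicate 1 and 2. Ido2, a paralog of Ido1, had dim signals of 31.7 and 15.4, then 48.4 and 35.1, and was not called (0.57 ± 0.30, adjusted p = 0.303; named for its kinship to Ido1).

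The arginases Arg1 and Arg2 had higher signals in NKT-modulated DC but no call. Arg1 had signals of 270 and 1066 in immature DC and 1597 and 2917 in NKT-modulated DC. The modulated arrays lay above the immature ones, but the 2 immature arrays differed from each other 3.42-fold after normalization, a difference at percentile 99.9 of all genes, and the 2 modulated arrays 1.83-fold, at percentile 94.4. The change was large but uncertain, at 2.09 ± 0.57 (95% interval 0.69 to 3.48; adjusted p = 0.0741). Without immature replicate 2, the brighter of the pair, it was 3.0 with adjusted p = 0.00985, without immature replicate 1 it was 1.21 with adjusted p = 0.120, and without NKT-modulated replicate 2 it was 1.64 with adjusted p = 0.244. Arg2 had closer replicates and a smaller change. Its 2 probe sets gave 110 and 124, then 238 and 169, and 76.3 and 107, then 148 and 190, with changes of 0.89 ± 0.22 (adjusted p = 0.0542) and 0.94 ± 0.25 (adjusted p = 0.0672). Arg2 lay near the threshold: with fit and adjustment over the 12393 genes only, adjusted p was 0.0421 for the brighter probe set, and the count of members that rose was then 7.

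Nos2, the other enzyme that uses arginine, was the dimmest of the 9 genes, at percentile 4.0 of all genes by mean level. Its signals were 6.03 and 2.06 in immature DC and 4.85 and 8.27 in NKT-modulated DC, below the pseudocount of 16 on all 4 arrays, and the groups overlapped. The change was 0.17 ± 0.22 (95% interval -0.36 to 0.71; adjusted p = 0.701), and 0.63 with a pseudocount of 1 (adjusted p = 0.667). No detection call was used, so whether Nos2 lay above background was not tested.

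Of 21 other measured genes of arginine, nitric oxide and polyamine metabolism, 2 rose, 0 fell and 19 did not pass (limma; 2 higher and 2 lower at an unadjusted p under 0.05), with a median of 0.03. Slc7a2, a transporter that imports arginine and other cationic amino acids, rose by 1.73 ± 0.16 (adjusted p = 0.00209), from 670 and 1051 to 2592 and 2703, and its 2 other probe sets by 1.77 ± 0.11 and 2.24 ± 0.15. It passed under every alternative, with adjusted p up to 0.0328. Gatm, which uses arginine in creatine synthesis, rose by 0.80 ± 0.16 (adjusted p = 0.0264), from 1016 and 1155 to 1519 and 2056; its adjusted p was 0.0922 and 0.0888 without immature replicate 1 and 2 and 0.0682 without NKT-modulated replicate 2. Without the intensity trend Gatm did not pass (limma, adjusted p = 0.114). Odc1, which takes ornithine from the arginases into polyamines, was not called, at 0.25 ± 0.11 (adjusted p = 0.235). It was named for its place after the arginases.

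Gch1, at the start of tetrahydrobiopterin synthesis, rose by a small amount. Its brighter probe set went from 1216 and 1390 to 1817 and 1636, a change of 0.50 ± 0.09 (1.41-fold; adjusted p = 0.0202). Its dimmer probe set went from 227 and 302 to 325 and 325, with a change of the same size, 0.50 ± 0.15, that did not pass (adjusted p = 0.101). In both the modulated arrays lay above the immature ones, with gaps of 0.43 and 0.37. Leaving out any 1 array ended the call of the brighter probe set: adjusted p was 0.0721 and 0.0657 without immature replicate 1 and 2 and 0.127 and 0.0709 without NKT-modulated replicate 1 and 2. It was 0.0972 without normalization between arrays and 0.121 without the intensity trend. Of 5 other measured genes of this route, 0 rose and 1 fell (limma; 0 higher and 2 lower at an unadjusted p under 0.05). Pts, which acts directly after Gch1, went from 938 and 1027 to 409 and 461, and fell by 0.98 ± 0.12 (adjusted p = 0.00452), with adjusted p up to 0.0437 over the alternatives.

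Over the 5 lists, 3 of 75 other pathway genes rose (4.0%) and 12 fell (16.0%), beside 5.99% and 6.88% of all genes, with a median of -0.10. Without 1 array at a time the count of falls was 6 and 7 (immature replicate 1 and 2) and 4 and 4 (NKT-modulated replicate 1 and 2). The balance of calls over all genes moves with the scaling: 46.5% of called genes were higher as reported, 35.2% without normalization between arrays and 54.1% after cyclic loess. The change of each of the 12 member probe sets was above 0 under every scaling tried.

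**Figure D4:**
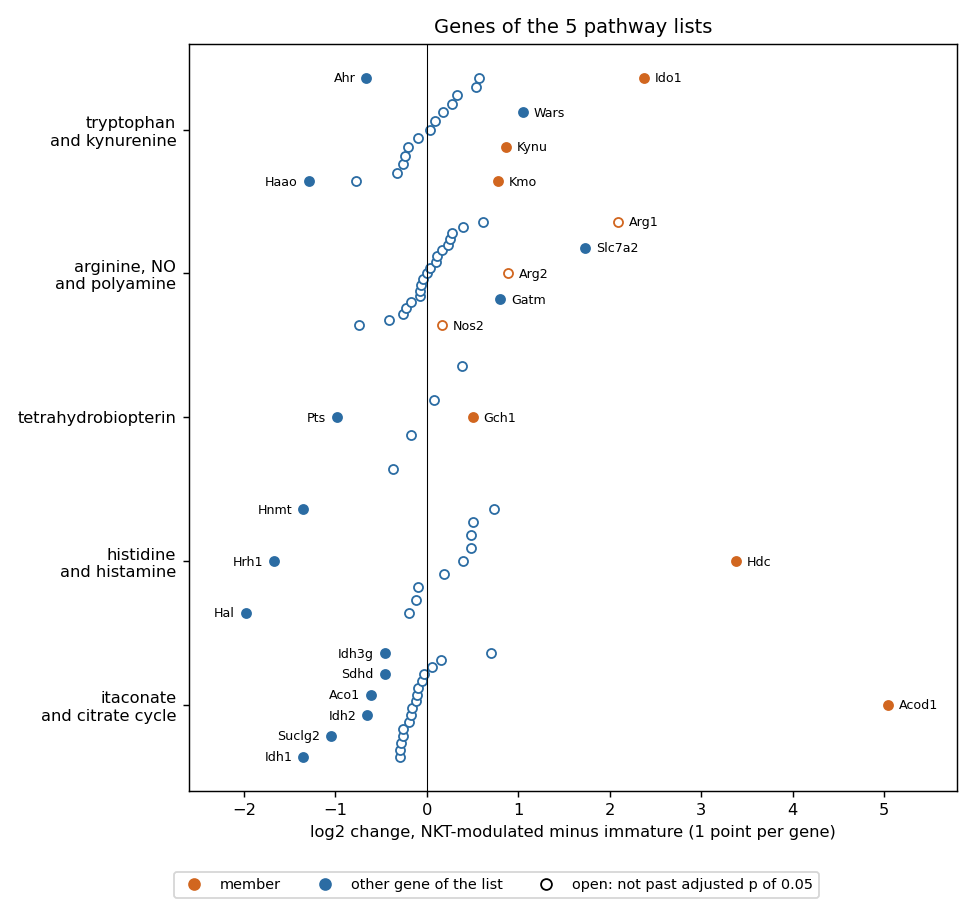
Log2 change (NKT-modulated minus immature) of each measured gene of the 5 pathway lists, with members in orange and other genes in blue. Filled points have an adjusted p under 0.05. Members lie to the right of 0, up to 5.04 for Acod1, while the called genes of the histidine and citrate cycle lists other than Hdc and Acod1 lie to the left.

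**Figure D5:**
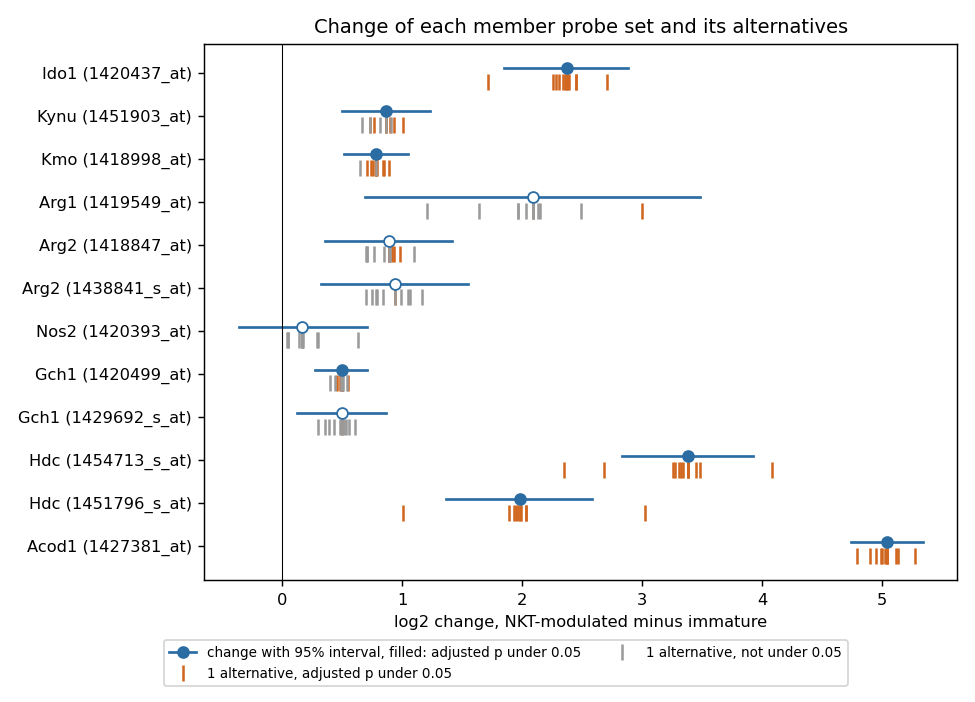
Log2 change of each member probe set with its 95% interval (blue, filled where the adjusted p is under 0.05), and below it 1 tick per alternative setting, orange where the adjusted p is under 0.05 and grey where it is not. Ido1, Acod1 and both Hdc probe sets have orange ticks throughout, whereas Kynu, Kmo and the brighter Gch1 probe set have both colours.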

How the data were processed

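The authors deposited linear intensities, 1 per probe set and array, made with GCOS, as the submitters' processing notes state; its version, the way probes were summarised and any scaling are not given in the sources used. The 64 control probe sets were dropped. Values were taken as log2(signal + 16) and quantile normalized, since array quartiles differed by up to 0.270. All 22626 probe sets were fitted with limma 3.58.1 in R 4.3.3 (eBayes with an intensity trend, two-sided; 2 residual and 4.13 prior degrees of freedom), adjusted by Benjamini-Hochberg over all of them. An exact permutation test of 2 against 2 arrays cannot go below p = 0.333.

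Of the probe sets, 20380 had 1 symbol in the platform annotation, 691 several and 1555 none here; 20351 were matched by gene ID to RefSeq's GRCm38.p6 table. The brightest probe set stands for a gene. The members and lists were chosen with earlier results of these data known. Named are all members and, of each pathway list, up to 4 other called genes with the smallest p; Ido2, Odc1 and single markers were added after their values were seen. The steps were tested on simulated data, in 5 runs that each changed 200 probe sets. In the real data 2501 probe sets were called, so the recovery rates may not hold there. Changes of 0.5, 1, 2 and 3 on the log2 scale were recovered in 2.00%, 24.8%, 66.8% and 94.4% of cases, and 4.47% of calls were false. A gene that did not pass may therefore still have changed. Alternatives were the pseudocount, normalization, trend, a filter on dim probe sets, the mean over a gene's probe sets, the threshold and leaving out each array; the fit over genes only was chosen after seeing the data.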

Additional observations from a re-analysis of the deposited data

How the results depend on the processing

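Over the alternatives, 120 of 142 values of member probe sets kept their direction and their side of the threshold, 13 lost the call, 9 gained it and 0 changed direction. Members that rose numbered 3 without the intensity trend, 2 at a threshold of 0.001 and 3 to 6 with 1 array left out. Other pathway genes that fell numbered 7 without the trend and 4 to 7 with 1 array left out. Probe sets higher and lower numbered 625 and 420 without the trend, 197 and 36 at 0.001, and 624 to 822 and 446 to 625 with 1 array left out. Without normalization between arrays the changes of Kynu and Gch1 (brighter probe set) were 0.67 and 0.40 and lost the call; without the trend Kynu, Kmo and Gch1 lost it at unaltered changes of 0.87, 0.78 and 0.50. With 1 array left out the changes were 0.73 to 1.01 for Kynu, 0.65 to 0.89 for Kmo, 0.44 to 0.54 for Gch1 and 1.21 to 3.0 for Arg1. Among probe sets with a mean signal of at least 50, fewer being tested (14907), Arg1 (2.09), both Arg2 probe sets (0.89 and 0.94) and the dimmer Gch1 probe set (0.50) were called. The brighter Arg2 probe set was also called with a pseudocount of 1 (0.98), after cyclic loess (0.93), as the mean of both probe sets (0.92) and with fit and adjustment over genes only (0.89). Nos2 and the dimmer Hdc probe set lie below that signal minimum. In fits that leave a group with 1 array, that array is assumed to vary like the other group. Other causes of these shifts were not tested. No paired analysis was possible because the labels give the groups no shared replicate numbers. With 2 arrays a group, precision is low.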
